A study of Mus musculus with 3 samples.

Results

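The small nuclear RNA (snRNA) genes of the spliceosome were examined in total RNA of mouse blood monocytes. Members were the genes with a transcript of biotype snRNA in GENCODE M21 that had an effective length above 0 in all 3 libraries and a summed expected count of 10 or more. The effective length is the average number of positions at which a fragment can start, and the expected count is the estimated number of reads of a gene. Of 1383 snRNA genes, 51 met the rule; 423 had an effective length above 0 in all 3 libraries and 58 had the summed count. The members were thus chosen by their expected counts and effective lengths in these same libraries, so their counts and levels are given as a description, with no test of their size.

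The cells were primary monocytes of peripheral blood, taken from adult mice of strain C57BL/6J at 5 to 6 weeks; no treatment is recorded and there was no second group. The 3 libraries, numbered as biological replicates 1, 2 and 3, were each made from 100 ng of RNA depleted of ribosomal RNA with a ScriptSeq kit, at recorded fragment sizes of 200 to 594 bp, 200 to 491 bp and 200 to 1000 bp. They share a donor record, and sex was not collected, so the spread between libraries may be partly technical. The gene tables held 27.2, 26.5 and 19.9 M expected counts.

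All 8 monocyte markers had a mean of 1 TPM or more (a level divided by effective length and scaled to a fixed total per library), with summed levels of 1674, 1429 and 967 TPM in libraries 1, 2 and 3. Library 3 stood apart in markers of other cells. The 2 globin genes summed to 3137, 2964 and 225 TPM, the 3 neutrophil genes to 130.0, 116 and 0.35 TPM with Ly6g at 0 throughout, the 3 natural killer cell genes to 543, 438 and 1221 TPM, and the 3 platelet genes to 12.5, 9.42 and 67.5 TPM. The 3 B cell genes summed to 28, 28.5 and 21.2 TPM and the 3 T cell genes to 1.88, 2.46 and 4.38 TPM. The part of these cells in the differences between libraries below was not tested. In bulk RNA, fewer cells of a type and less RNA per cell cannot be told apart.

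The spliceosome removes introns from pre-mRNA and is built on small nuclear RNAs, each bound by a ring of proteins and by proteins of its own. In the major spliceosome U1 pairs with the 5′ splice site, U2 with the branch site, and U4, U5 and U6 join as a unit in which U4 holds U6 inactive until splicing begins and U5 aligns the exons. The minor spliceosome removes a rare class of introns with U11 and U12 in the places of U1 and U2 and with U4atac and U6atac in those of U4 and U6, and it shares U5. All but U6 and U6atac are made by RNA polymerase II and carry a Sm site, the stretch on which the Sm ring closes.

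Sequences of U1, U2, U11, U12 and the U4-, U4atac- and U6atac-type RNAs are shown so that the Sm site and the differences between copies can be located. Rnu1b1 is shown as the reference for the U1b copies and is not a leading sequence of U1. They are from the GENCODE M21 transcripts (mm10), 5′ to 3′ in DNA letters, and the capitals mark the match to the Sm motif, searched as ATTTNTG or ATTTTTTG on the transcribed strand. Rnu1a1 lies at chr11:87422867-87423030 on the plus strand, Rnu1b1 at chr3:96359953-96360117 on the minus strand and Rnu2-10 at chr11:101658238-101658428 on the plus strand. Rnu11 lies at chr4:132270080-132270213 on the minus strand and Rnu12 at chr15:83149644-83149794 on the plus strand. Gm24265 at chr5:115489459-115489599 on the plus strand, Gm22710 at chr1:118459141-118459265 on the minus strand and Gm25541 at chr2:27539805-27539930 on the minus strand carry no RNA's name in the annotation. They are called U4-type, U4atac-type and U6atac-type here because their sequences were recognised as those RNAs after the data were seen.
Rnu1a1: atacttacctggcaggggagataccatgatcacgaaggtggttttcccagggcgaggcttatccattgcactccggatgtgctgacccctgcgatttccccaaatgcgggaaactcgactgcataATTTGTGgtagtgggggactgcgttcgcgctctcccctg
Rnu1b1: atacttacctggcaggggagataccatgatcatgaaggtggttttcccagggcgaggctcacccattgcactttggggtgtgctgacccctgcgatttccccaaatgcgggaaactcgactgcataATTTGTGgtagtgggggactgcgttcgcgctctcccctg
Rnu2-10: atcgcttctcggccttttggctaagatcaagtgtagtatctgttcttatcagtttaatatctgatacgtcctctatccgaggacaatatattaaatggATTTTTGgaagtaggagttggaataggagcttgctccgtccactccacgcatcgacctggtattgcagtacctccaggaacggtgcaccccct
Gm24265: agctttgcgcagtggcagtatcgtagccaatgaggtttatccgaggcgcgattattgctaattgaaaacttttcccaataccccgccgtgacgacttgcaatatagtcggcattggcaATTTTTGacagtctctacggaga
Rnu11: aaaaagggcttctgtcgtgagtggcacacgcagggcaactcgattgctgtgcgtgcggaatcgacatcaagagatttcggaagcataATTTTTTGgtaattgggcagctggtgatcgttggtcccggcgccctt
Rnu12: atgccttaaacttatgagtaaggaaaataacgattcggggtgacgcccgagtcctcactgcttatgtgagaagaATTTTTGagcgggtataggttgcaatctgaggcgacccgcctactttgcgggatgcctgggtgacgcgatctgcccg
Gm22710: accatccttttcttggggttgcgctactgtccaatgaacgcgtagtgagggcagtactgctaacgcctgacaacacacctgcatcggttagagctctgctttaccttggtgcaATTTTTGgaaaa
Gm25541: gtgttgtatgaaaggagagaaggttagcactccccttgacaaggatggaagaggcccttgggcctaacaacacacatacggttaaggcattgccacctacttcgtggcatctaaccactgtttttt

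The Sm motif was found in 48 of the 51 members and in 252 of the 1332 other snRNA genes (18.9%). Most of those others were 590 U6 genes (15.1% with the motif) and 629 genes that matched no named RNA (17.3%). Outside the rule, 33 of 54 U1, 4 of 5 U2, 2 of 3 U5, 3 of 4 U11 and 2 of 3 U12 genes held it. The 18.9% thus compares unlike classes. The 3 members without the motif were Gm25541, the U6atac-type gene, and the 2 partial copies Gm22220 and Gm23887. In 23 of the 24 U1 members the match began at base 126 or 127, and in Gm24145 at base 147. ACTTACCTG, the stretch near the 5′ end of U1 that pairs with the 5′ splice site, stood in the first 11 bases of 23 of 24 U1 members, Gm24145 being the exception, and of 18 of the 54 U1 genes outside the rule. GTAGTA, in the branch-site segment of U2, began at base 33 in all 12 U2 members. It stood in 2 of the 5 U2 genes outside the rule and in 3.69% of all 1383 snRNA genes. GTAAGGA, in the branch-site segment of U12, began at base 18 of Rnu12. It stood in all 3 U12 genes outside the rule and in 1.37% of all snRNA genes. These stretches were searched on the transcribed strand, and a match is a description of letters alone.

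By blastn against the genes whose symbols name an RNA (80% identity over 80% of the member), 24 members were U1 genes with 14 sequences, 12 were U2 genes with 8 sequences, 7 were U5 genes with 7 sequences, and U11 and U12 had 1 gene each. The remaining 6 matched no named gene at that threshold: the 2 U4-type genes Gm24265 and Gm24407, Gm22710, Gm25541, and the partial copies Gm22220 (U1-like, 75.2% covered) and Gm23887 (U2-like, 76.2% covered). No U6 gene was a member: 548 of the 590 U6 genes had an effective length of 0 in a library, and the other 42 had too few counts. The members just inside the count minimum were Gm23887 with 11 counts and Gm24145 with 13, and those just outside were Gm23330 with 7 and Gm22611, Gm24524 and Gm24041 with 5 each. Among genes kept out by effective length the highest were the U6 genes Gm22003 with 52 counts and Gm23627 with 45.98.

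In libraries 1, 2 and 3 the members took up 7.56%, 9.25% and 5.14% of all counts. U2 had the most counts and the highest TPM and U1 the next, and together they made up nearly all of the members' counts. U2 had 1528532, 1866017 and 678269 counts, or 365129.7, 361224 and 296698 TPM (341017 ± 38431 TPM, SD, n = 3). U1 had 480612, 504374 and 327247 counts, or 204526, 173142 and 277222 TPM (218297 ± 53389 TPM, SD, n = 3). U2 was the higher of the pair in all 3 libraries, by 1.79, 2.09 and 1.07-fold in TPM and by 3.18, 3.7 and 2.07-fold in plain counts. U2 is also the longer, with 191 bases against 164. Every RNA class here is shorter than the 200 bp at which the recorded fragment sizes start. The part of length in the order of the RNAs was not tested.

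The U4-type RNA, which in its known role holds U6 until activation, had 11138, 14494 and 10244 counts, or 9548, 10102 and 19413 TPM (13021 ± 5543 TPM, SD, n = 3). Library 3 was the highest on this scale, while as a share of the library's counts the RNA ranged 1.33-fold. U5 had 2482, 9795 and 145 counts, or 6992, 23401 and 1025 TPM (10473 ± 11587 TPM, SD, n = 3), so that library 2 was the highest, library 3 the lowest and the SD larger than the mean.

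Of the minor spliceosome, U12, the branch-site RNA, had the most counts and the highest TPM and U11, the 5′ splice-site RNA, the next. Rnu12 had 27289, 58201 and 6380 counts, or 16739, 28852 and 8246 TPM (17946 ± 10356 TPM, SD, n = 3). Rnu11 had 2911, 2568 and 818 counts, or 3272, 2363 and 2106 TPM (2580.1 ± 613 TPM, SD, n = 3). Rnu12 exceeded Rnu11 in every library, by 5.12, 12.2 and 3.92-fold in TPM and by 9.37, 22.7 and 7.8-fold in plain counts. Rnu12 is the longer, with 151 bases against 134, and the part of length in this difference was not tested. The U4atac-type gene Gm22710 had 460, 293 and 48 counts, or 778, 411 and 194 TPM (461 ± 295 TPM, SD, n = 3). The U6atac-type gene Gm25541 had 54, 34 and 17 counts, or 86.9, 45.3 and 65.2 TPM (65.8 ± 20.8 TPM, SD, n = 3). Rnu11 lies opposite an exon of the lincRNA Gm28872 and Gm22710 within an exon of the antisense gene 2900060B14Rik, and no source used here gives the strand setting of the counting.

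**Figure D1:**
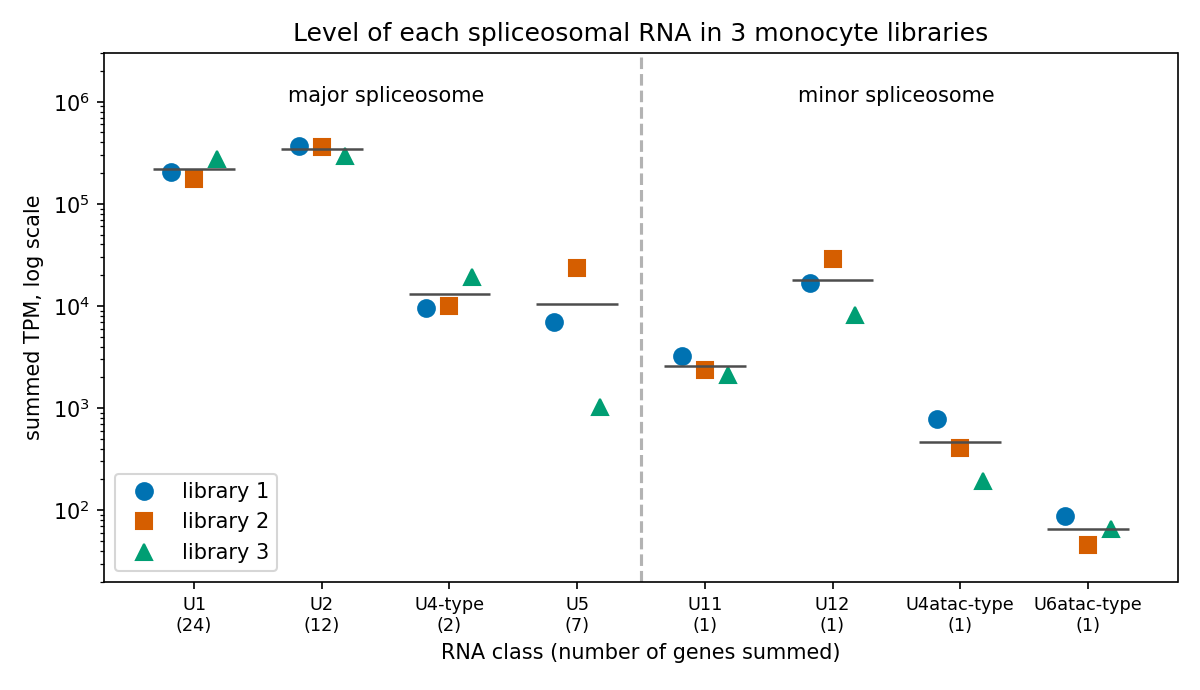
Summed TPM of each RNA class (log axis) in the 3 libraries, with the number of genes summed in brackets and a bar at the mean of the libraries. U1 and U2 lay between 173142 and 365129.7 TPM, above every other class in every library, and U5 spread the most, from 1025 to 23401 TPM. U5 is drawn with the major spliceosome, though both share it.

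In the order of mean TPM, U2, U1, U12, U4-type, U5, U11, U4atac-type and U6atac-type, the steps from U2 to U1, from U1 to U12, from U11 to the U4atac-type and from there to the U6atac-type kept their direction in all 3 libraries. The 3 steps between did not. U12 was 1.75 and 2.86-fold the U4-type RNA in libraries 1 and 2 and 0.425-fold in library 3. The U4-type RNA was 1.37, 0.432 and 18.9-fold U5, and U5 was 2.14, 9.9 and 0.487-fold U11. In TPM, U12, the U4-type RNA, U5 and U11 were thus ordered differently by different libraries. Part of this order turned on the scale. By count per annotated length the U4-type RNA was 3.69, 1.22 and 58.2-fold U5, above it in every library, and U5 was 0.985, 4.41 and 0.204-fold U11, below it in libraries 1 and 3. In TPM of the authors' kallisto-format tables, a separate quantification of the same libraries, U5 was 2.12, 6.32 and 1.19-fold U11, above it in every library. U12 was below the U4-type RNA in library 3 alone on each of these scales.

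The RNAs of the major spliceosome exceeded those of the minor one in each library. The summed TPM of U1, U2 and U5 was 28.8, 17.9 and 55.5-fold that of U11 and U12 in libraries 1, 2 and 3, a mean log2 ratio of 4.93 ± 0.82 (SD, n = 3). The ratio was above 1 in 3 of 3 libraries. U5, which both spliceosomes share, was summed with the major side, and no alternative left it out. The U4-type RNA was not in this sum. The pair that recognises the 5′ splice site differed the most: U1 was 62.5, 73.3 and 132-fold U11, a mean log2 ratio of 6.40 ± 0.57 (SD, n = 3). For the pair at the branch site U2 was 21.8, 12.5 and 36-fold U12, a mean log2 ratio of 4.42 ± 0.76 (SD, n = 3). The U4-type RNA was 12.3, 24.6 and 100.1-fold the U4atac-type RNA, a mean log2 ratio of 4.96 ± 1.54 (SD, n = 3). In each pair the major RNA is the longer. U1 has 164 bases against 134 for U11, U2 191 against 151, and the U4-type RNA 141 against 125. The part of length in these ratios was not tested. Library 3 had the highest value of each of these ratios. In TPM, library 3 had the lowest U11, U12, U4atac-type and U2 levels of the 3 libraries and the highest U1 and U4-type levels. As a share of the library's counts it was again the lowest for U11, U12, the U4atac-type and U2, but not the highest for U1 or the U4-type RNA. U1 took up 1.77%, 1.9% and 1.64% of the counts in libraries 1, 2 and 3, the lowest in library 3. The U4-type RNA took up 0.041%, 0.0546% and 0.0514%, the highest in library 2.

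The size of the ratio moved with the length term and with the table. TPM divides by the effective length, which fell more steeply than the annotated length: 37.25, 42.54 and 30.07 bases for a 191-base RNA such as U2, 14.51, 16.61 and 10.18 for the 151 bases of U12, 7.92, 8.95 and 5.11 for the 134 bases of U11, and 3.16, 3.45 and 1.86 for the 116 bases of U5. A single count thus stood for 0.239, 0.194 and 0.437 TPM of U2 but for 2.82, 2.39 and 7.07 TPM of U5. With counts divided by annotated length the major RNAs were 54.1, 32 and 115-fold the minor ones, and with plain counts 66.6, 39.2 and 139.7-fold. In the authors' kallisto-format tables, where the effective length of a 116-base RNA was 25.6, 23.8 and 21.4, they were 22.4, 12.2 and 51.4-fold. Those tables differ in the counts as well as in the lengths, with 55295, 119560 and 11397 counts of U12. The libraries kept the order 3, 1, 2 on all of these scales.

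**Figure D2:**
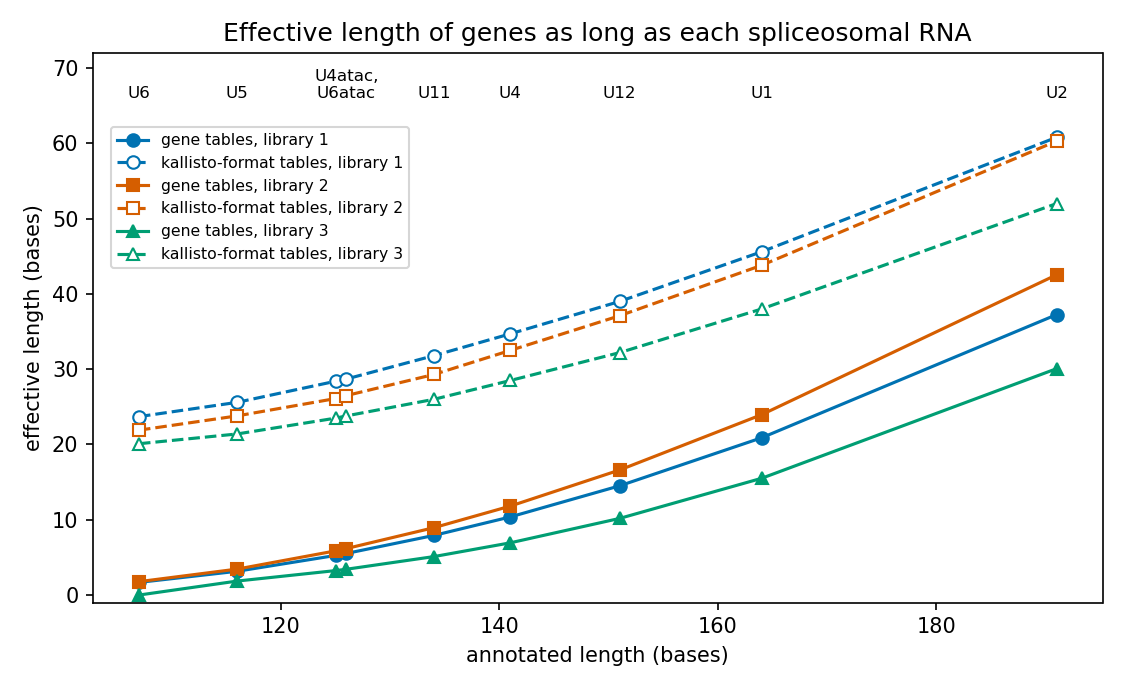
Effective length (bases) against annotated length (bases) of snRNA genes as long as each spliceosomal RNA, by library, in the gene tables (filled points, solid lines) and the kallisto-format tables (open points, dashed lines). In the gene tables a 107-base RNA such as U6 had 1.68 and 1.78 bases in libraries 1 and 2 and 0 in library 3.

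**Figure D3:**
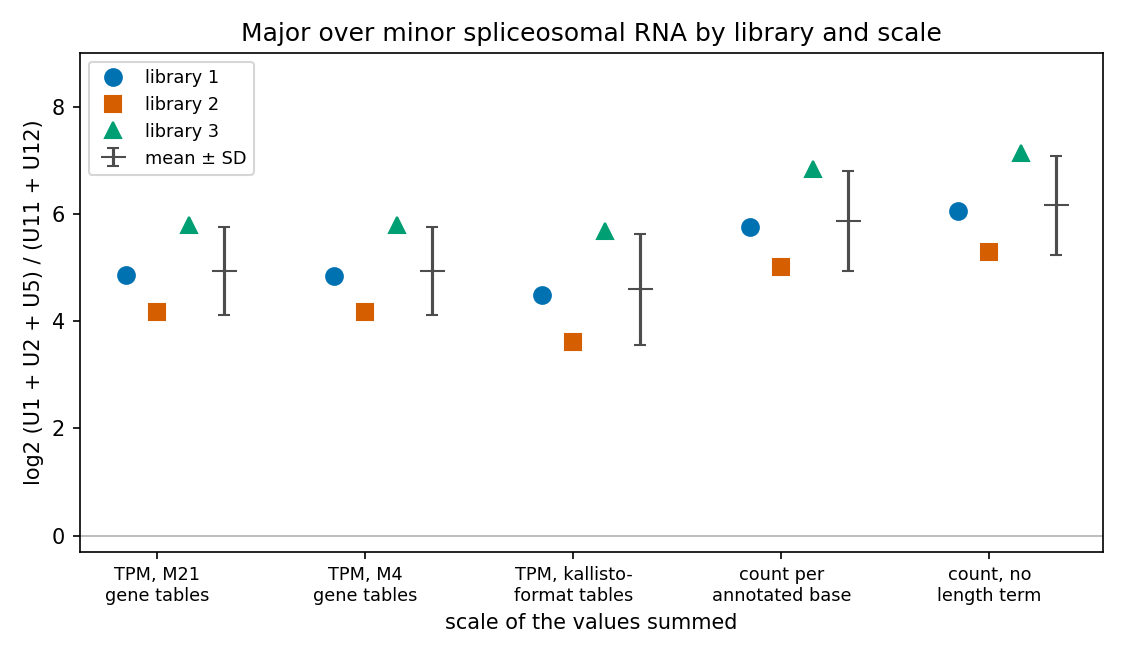
Log2 ratio of major (U1, U2 and U5) to minor (U11 and U12) spliceosomal RNA in each library on 5 scales, with the mean and SD of the 3 libraries. All values lay above 0, library 3 was the highest and library 2 the lowest on each scale.

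Within U1, 2 sequences carried nearly all counts. The Rnu1a1 sequence, shared by 7 identical members on chromosomes 11 and 12, held 67.8%, 68.2% and 67.1% of the U1 counts in libraries 1, 2 and 3. Reads cannot be divided between identical copies, and the tables list each of the 7 with the same 46540.70, 49165.02 and 31376.24 counts. Gm22513, at chr12:54696782-54696945, differs from Rnu1a1 by T60C, with positions counted from 1 at the 5′ end and the base of the reference gene first. This 1 gene had 132070, 129928 and 93082 counts, 27.5%, 25.8% and 28.4% of U1, which exceeded the 46540.70, 49165.02 and 31376.24 listed for each copy of Rnu1a1. Its posterior SD, the tables' own error of dividing reads between genes, was 21.80, 19.59 and 18.62 counts, against 6209.76, 5292.82 and 4585.31 for Rnu1a1.

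The U1b genes on chromosome 3 were the minor share of U1. Gm25890 and Gm22614, identical to each other and T33C against Rnu1b1, together had 20053, 21908 and 12606 counts, 4.17%, 4.34% and 3.85% of U1. Rnu1b1 and Rnu1b2, also identical, together had 924, 855 and 634 counts, and Rnu1b6 with its 2 identical copies had 15, 59 and 19. Rnu1b1 and Rnu1b2 thus had fewer counts than an unnamed pair that differs from them at a single base. Gm24924 and Gm26244, 99.4% identical to Rnu1a1, were listed at 314, 6194 and 262 counts together, with posterior SDs of 3109.39 to 5265.41 counts each, and their level cannot be told apart from that of Rnu1a1.

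In U2 the 4 identical copies of Rnu2-10 on chromosome 11 held 88.2%, 88.2% and 90.2% of the counts. The 5 members with G109C against Rnu2-10 (Gm23472, Gm23444, Gm24497, Gm25939 and Gm25360) held 11.2%, 11.3% and 9.49%. The largest of these sequences, that of Gm23472 and Gm23444, had 126403, 119002 and 45424 counts. Gm24497, which adds C186A, had 16915, 56541 and 8412 counts, 1.11%, 3.03% and 1.24% of U2, with posterior SDs of 4645.98, 3650.18 and 1888.69. Library 2 was the highest for it in these tables, while in the kallisto-format tables its shares were 1.7%, 4.41% and 4.42%.

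The 2 U4-type genes lie within 1 kb of each other on chromosome 5 and differ by G88A and C99A. Gm24265 held 61.4%, 60.8% and 60.8% of their counts, and Gm24407, at chr5:115490254-115490394, the rest. In the kallisto-format tables the shares of Gm24265 were 45.5%, 50% and 40.8%, so which of the pair was the higher depended on the table.

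U5 was divided differently in each library. Rnu5g had 1708, 4572 and 0 counts and Gm25313, which is 97.4% identical to it, had 0, 2110 and 97. The posterior SD of either was 79.35 or 79.37 counts in library 1, 798.45 or 798.48 in library 2 and 20.30 in library 3. Summed, the pair held 68.8%, 68.2% and 67% of U5, a steady share. Gm24871, on chromosome 1, held 23.1%, 25.9% and 26.1%, with 574, 2540 and 38 counts. In the kallisto-format tables neither gene of the pair was at 0 in any library: Rnu5g held 26.7%, 34% and 27.6% of U5 and Gm25313 held 41.6%, 35.2% and 40.1%. The zeros of single U5 genes therefore depended on the table. The other U5 members, Gm25099, Gm23143, Gm23287 and Gm22265, had at most 373 counts in any library.

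**Figure D4:**
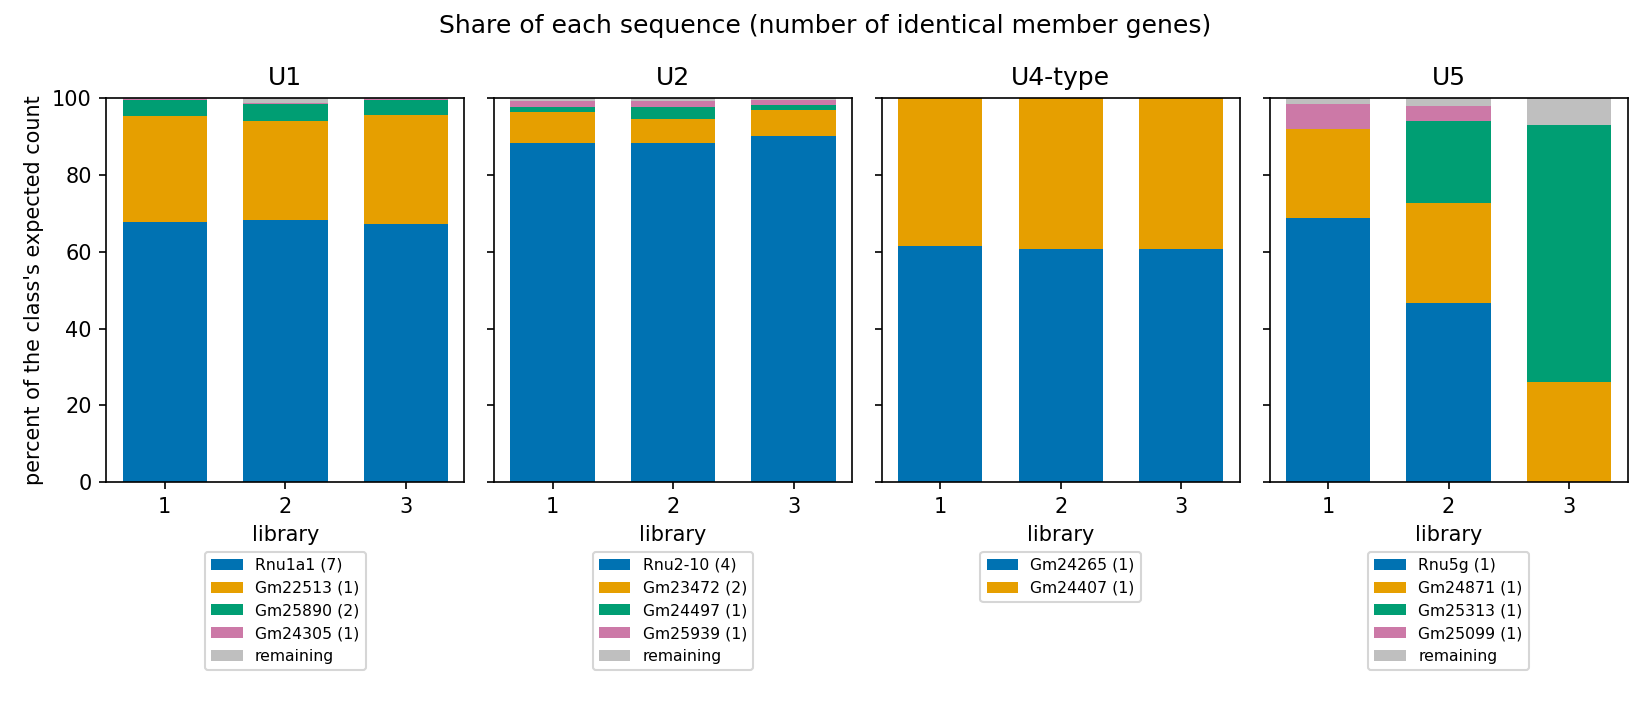
Percent of the expected counts of U1, U2, U4-type and U5 RNA carried by the leading sequences in each library, with the number of identical member genes in brackets. The leading U1 and U2 sequences held 67.1% to 68.2% and 88.2% to 90.2% of the counts in every library, while Rnu5g and Gm25313 took the place of each other in U5.

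By position, many but not all members of a class lay in groups. Another member of the same class lay within 100 kb of 16 of the 24 U1, 9 of the 12 U2 and 5 of the 7 U5 members, while Gm24924 and Gm26244 of U1, Gm23444 of U2 and Gm24871 of U5 were among those with none. Of the U1a genes 7 lay between chr12:54696782 and chr12:54738622 and 2, Rnu1a1 and Gm22068, in introns of Tex14 on chromosome 11. The U1b genes of chromosome 3 lay between chr3:96328425 and chr3:96488893. The 4 Rnu2-10 copies and Gm26316 lay between chr11:101604850 and chr11:101658428, and 4 of the copies with G109C between chr1:72226240 and chr1:72255198. Those 4 had 108243, 150454 and 41676 counts together, 7.08%, 8.06% and 6.14% of U2. Rnu5g and Gm25313 lay in introns of Parp16 on its opposite strand, and 3 low U5 genes between chr4:117189942 and chr4:117210959, with 200, 546 and 10 counts together.

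Between libraries, 16 of the 51 members ranged over more than 4-fold in TPM (highest over lowest of TPM + 0.1), a share of 31.4%. This was the case for 11.9% of all 17664 genes tested and for 45.3% of the 137 other genes of 200 bases or less. The 16 were all 7 U5 genes, 6 U1 genes, Gm22710, Gm22220 and Gm23887, and none was a U2 gene. Of the 34 members with a summed count of 1000 or more, 5 did so: Rnu5g, Gm25313, Gm24871, Gm24924 and Gm26244. For all of these but Gm24871 the division of reads from a near copy was uncertain, as given above. Gm24871 overlaps an exon of the antisense gene B930036N10Rik on the same strand, and the part of that overlap was not tested. Of the 17 members under 1000 counts, 11 did so. The median range of the members was 1.96-fold, and of all genes tested 1.84-fold. The count of 16 became 7 in the kallisto-format tables, 10 without library 2 and 8 without library 3.

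Summed over copies, the classes differed in how far library 3 departed from library 2. As a share of the library's counts, which involves no effective length, library 3 had 0.942-fold the U4-type RNA of library 2, 0.865-fold the U1, 0.666-fold the U6atac-type, 0.484-fold the U2, 0.424-fold the U11, 0.217-fold the U4atac-type, 0.146-fold the U12 and 0.0197-fold the U5. In TPM U5 ranged 22.8-fold over the libraries, as a share of counts 50.8-fold and 8.17-fold by the kallisto-format values. U12 ranged 3.5-fold, 6.85-fold and 5.1-fold on the same scales, and U1 1.6-fold, 1.16-fold and 1.25-fold. U5 was the RNA with the widest range on all 3 scales. The classes also differ in length, from 116 bases for U5 to 191 for U2, and the part of length was not tested. The markers of other blood cells given above moved between the same libraries, and their part was not tested.

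**Figure D5:**
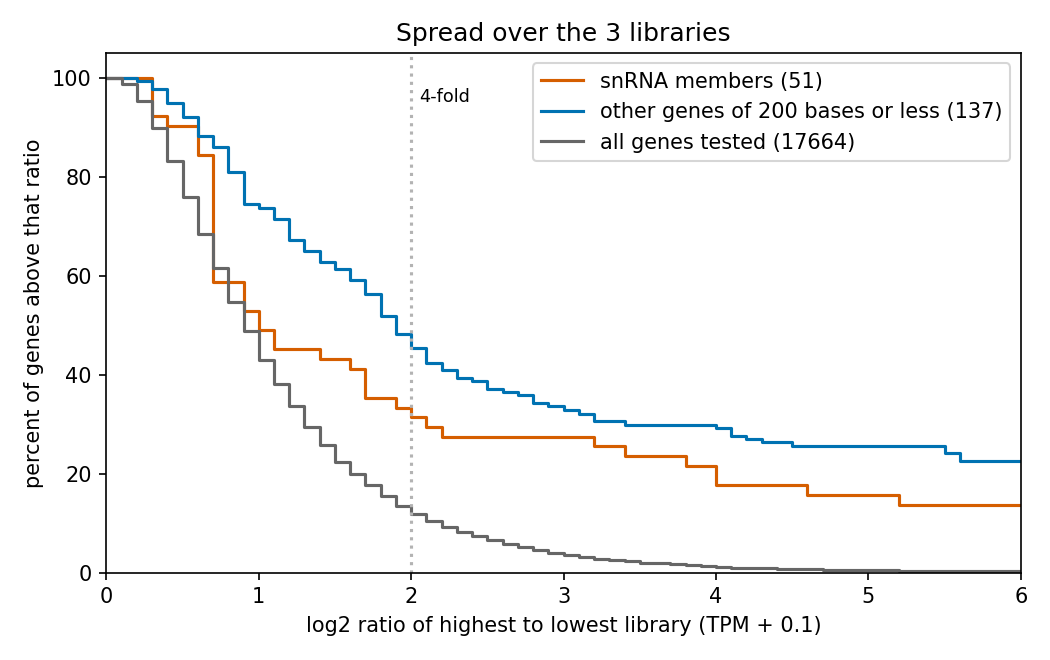
Percent of genes whose highest library exceeded the lowest by more than the log2 ratio on the x axis (TPM + 0.1), for the 51 members, the 137 other genes of 200 bases or less and all 17664 genes tested. At 4-fold the curves stand at 31.4%, 45.3% and 11.9%.

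The proteins that bind, make and assemble these RNAs were examined as 98 protein-coding genes in 8 lists. By edgeR's quasi-likelihood test against 1 TPM with Benjamini-Hochberg adjustment over all genes, 76 of the 98 (77.6%) were above 1 TPM and 0 below. At an unadjusted p under 0.05, edgeR placed 0 below, DESeq2 placed 0 below at an adjusted p under 0.05, and limma placed 2 or 3 below, with a pseudocount of 0.1 or 1 TPM. Of all 17664 genes tested 43.2% were above and 6.36% below, and of the 12994 protein-coding genes 54% and 6.03%. The counts of single lists below are to be read beside that 54%. The median log2 level over the lists was 2.10, against 1.06 over protein-coding genes and 0.24 over all genes tested. The snRNA members take most of the TPM total. With TPM taken over protein-coding genes alone 96 of the 98 were above, against 68.5% of all genes tested. Those genes include non-coding ones, and the share among protein-coding genes was not computed on that scale.

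All 7 genes of the Sm core, whose proteins form the ring on the Sm site, were above 1 TPM. Snrpe was the highest with 37.9, 29.9 and 23.8 TPM and Snrpd2 the lowest with 4.5, 2.89 and 2.85 TPM. Of the LSm genes, which bind the 3′ end of U6, 6 of 7 were above; Lsm3 had 15.4, 20.6 and 14.4 TPM and Lsm2, at 1.46, 0.99 and 0.96 TPM, did not pass the test (adjusted p = 0.716, edgeR).

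All 3 proteins particular to U1 were above, from Snrnp70 at 34, 27.4 and 45.8 TPM to Snrpa at 3.09, 2.74 and 3.83 TPM. Of the U2 proteins 9 of 12 were above. Sf3b1, which holds the branch site in the U2 particle, was the highest gene of all 8 lists at 101, 89.6 and 73 TPM, and Sf3b4 was the lowest of its list at 0.42, 0.7 and 1.46 TPM (adjusted p = 0.667, edgeR). Of the U4/U6 and U5 proteins 13 of 15 were above, from the helicase Snrnp200, which unwinds U4 from U6, at 16.4, 13.7 and 21.2 TPM to Txnl4a at 1.19, 0.98 and 1.09 TPM (adjusted p = 0.676, edgeR).

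Of the 10 genes of the minor spliceosome 7 were above 1 TPM (70%, against 54% of all protein-coding genes tested). Snrnp48 had 20.4, 11.5 and 20.5 TPM, Zcrb1 had 17, 15.8 and 12.5 TPM, and Rnpc3, whose protein bridges U11 and U12, had 11.6, 13.6 and 7.64 TPM. Scnm1 had 6.85, 7.73 and 13.2 TPM, Zrsr2, which recognises the 3′ splice site of minor introns, 7.41, 8.42 and 4.73 TPM, Pdcd7 2.58, 1.53 and 4.61 TPM, and Zrsr1 1.97, 2.61 and 3.59 TPM. The other 3 did not pass the test: Snrnp25 at 1.81, 1.78 and 2.2 TPM (adjusted p = 0.0559, edgeR), Snrnp35, a U11 protein, at 1.31, 0.92 and 0.76 TPM, and Zmat5 at 0.92, 0.55 and 1.57 TPM. None of the 10 ranged over more than 4-fold between libraries, where 11.9% of all 17664 genes tested did. In so short a list that is no result about these genes.

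Of the genes for transcription and 3′ processing of snRNAs, which include the SNAPc and Integrator subunits, 17 of 22 were above, with Ints13 the highest at 12.2, 7.13 and 11.6 TPM and Snapc2 the lowest at 0.79, 0.58 and 0.47 TPM (adjusted p = 0.257, edgeR). Of the genes for assembly and maturation 14 of 22 were above (63.6%, against 54% of all protein-coding genes tested). Ssb, which encodes the La protein that binds the ends of polymerase III transcripts, had 46.6, 34.3 and 40.5 TPM, and Gemin8 of the SMN complex was the lowest at 0.02, 0 and 0.11 TPM (adjusted p = 0.203, edgeR). Of the 98 genes 1 ranged over more than 4-fold between libraries, against 11.9% of all 17664 genes tested. It was Gemin4 at 0, 0.22 and 0.46 TPM, which is named for that range after its values were seen.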

How the data were processed

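Total RNA-seq of mouse monocytes was analysed in 3 libraries of 1 group. Per the accompanying notes, the authors quantified the reads on mm10 with GENCODE M21 and again with M4. The deposited gene tables hold an expected count, the estimated number of reads of a gene, and the deposited TPM, scaled by the authors over all rows of a table. Per transcript, the deposited kallisto-format tables hold TPM and an estimated count. Neither the programs nor the strand setting are given in these sources.

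The members and lists were chosen with earlier results of these data known. Copies were classed with blastn 2.17.0 and their TPM summed, and identical copies were always summed. Protein genes were tested with edgeR 4.0.16 in R 4.3.3 (intercept only, counts rounded, an offset of 1 TPM, summed count of 10 or more, adjusted p under 0.05). Alternatives were limma 3.58.1 and DESeq2 1.42.0. The edgeR test was also run on simulated counts, each gene with the trend's dispersion at its mean and no scatter between genes, unlike real data. That simulation replaced a first version in which the test called no changed gene, so it is not offered as support. F came from the fit's deviances and moderated dispersions. Ranges used log2(TPM + 0.1). Named were all Rnu genes, the top 3 of each class, all minor-spliceosome members and proteins, and the highest and lowest gene of each other list. No members were tested against 1 TPM, since the rule fixes their counts. For the same reason the sign-flip test planned for the ratios is not given; 3 libraries allow no p under 0.25. A count of 0 allows up to 3 counts, which is 21.2 TPM for a U5 gene in library 3, for counting error only. Each library counted as 1 sample, as numbered in the record. Any 2 libraries differed beyond counting noise (chi-square per gene of 45.5 to 169.9). That does not show that they are independent, since they share a donor record. The sequence of U5 is not reported here.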

Additional observations from a re-analysis of the deposited data

Results flagged for a closer look

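The kallisto-format tables, outside the comparisons above, held a signal for U6 that the gene tables lack. Over the 590 U6 genes they give 12473, 12204 and 7959 estimated counts in libraries 1, 2 and 3, where the gene tables give 135, 70 and 37. Counts were spread over 320 of the genes, and Gm26127 led with 1960, 1436 and 1418, each above the 3 counts that a count of 0 allows for 1 gene. The same tables give U6 levels of 6246, 6176 and 7568 TPM, beside 2870, 7631 and 934 TPM for U5. The 107 bases of U6 have an effective length of 23.7, 21.9 and 20.1 there and of 1.68, 1.78 and 0 in the gene tables; which table is nearer to the RNA in the cells was not tested.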

How the results depend on the processing

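The mean log2 ratio of major to minor RNA, 4.93, stayed above 0 under all 13 alternatives. It was 5.87 with counts per annotated length, 6.16 with plain counts and 4.59 in the kallisto-format tables, and from 4.50 to 5.32 with 1 library left out. Adding the U4-type genes to the major and Gm22710 and Gm25541 to the minor side, an alternative chosen after seeing the data, gave 4.93. Dropping U6 and limiting the minor side to U11 and U12 changed nothing by construction. The count of members over 4-fold, 16, became 25 at 2-fold, 7 in the kallisto-format tables, 1 (U5) when summed per class with the 6 unmatched genes as 1 class, and 2 (U5 and the U4atac-type) with the U4-, U4atac- and U6atac-type genes as classes of their own, chosen after seeing the data. It was from 8 to 12 with 1 library left out (12 without library 1, 10 without library 2, 8 without library 3). The count of protein genes above 1 TPM was 62 with DESeq2, 75 and 76 with limma, 96 on the protein-coding scale and from 74 to 75 with 1 library left out. The levels of U1, U2, U11 and the U6atac-type RNA in the kallisto-format tables, 147534, 254058, 1116 and 102 TPM, moved by more than the SD of the libraries. The U5 level, whose SD exceeds its mean, was 3811 TPM there and 4009 TPM without library 2, against 10473 TPM. Replicate numbers belong to 1 group: no paired analysis was possible because no second group exists. For RNAs under about 200 bases, TPM rests on effective lengths far below the annotated ones, from 1.86 to 42.54 bases over U5 to U2, and single copies with identical sequences cannot be told apart at any depth.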

Other observations

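U7, the snRNA that acts in the 3′ processing of histone mRNAs rather than in splicing, had 44 genes in the annotation and 0 counts in all 3 libraries in both kinds of table. In the gene tables none of the 44 had an effective length above 0 in all 3 libraries, so their zeros there carry no information on the level. Of the 78 U1 genes in the annotation, 54 lay outside the rule, and 33 of those hold the Sm motif.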
